A study of Mus musculus with 6 samples.

Results

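The Wnt pathway was followed through its ligands, receptors, secreted antagonists and intracellular effectors in 6 C0321 mammary tumors. Genes were taken by symbol from the deposited count table: those starting with Wnt, Fzd, Sfrp, Dkk or Dvl before a digit, together with 22 single genes that serve the same pathway. The table held 52 such genes of 13730 in all, and 47 of them passed the filter on low counts, against 10902 genes that passed in all. C0321 is a clonal mouse triple-negative breast cancer (TNBC) line derived from an Lfng-/- mouse on the FVB background, so Control and SS tumors alike carried that deletion. For each tumor 1000000 cells were placed in Matrigel and PBS in the mammary fat pad of a female FVB mouse aged 6 to 10 weeks. The 3 SS mice received the drug by mouth at 60 mg/kg each day for 14 days, and the 3 Control mice received no drug over that time. SS is sulindac sulfide in the paper's methods, whereas the sample labels spell it Sulindac Sulfate, and the control treatment is saline in the series text and vehicle in the methods. The tumors were whole tissue, so fewer cells of a type and less RNA per cell cannot be told apart.

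Wnt proteins are secreted lipid-modified ligands that bind Frizzled receptors together with the co-receptors Lrp5 or Lrp6. In the canonical branch this stops a destruction complex built on Axin and Apc from marking beta-catenin for degradation, and beta-catenin then acts with TCF/LEF factors at target genes. Other branches run through Ror and Ryk receptors and alter cell shape and movement, and in the mammary gland Wnt signals are known for their part in ductal growth and in maintaining stem cells.

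Totals were 8468914 to 24441522 estimated counts per tumor, the shallowest being SS tumor 2, where 3 counts correspond to 0.354 CPM (counts scaled to a library of 1000000). Between tumors, log2 levels over all genes correlated at 0.93 to 0.969, with SS tumor 2 in the lowest value and Control tumors 2 and 3 in the highest. Of markers for the labelled tumor type, Erbb2 was at 17.1 to 22.4 CPM, Esr1 at 4.48 to 6.4 CPM and Pgr at 0 (SS tumor 3) to 3.82 CPM, and a mesenchymal list led by Vim summed to 6836 to 9572 CPM. Summed skeletal muscle markers spanned 881 to 9326 CPM in Control and 283 to 17888 CPM in SS tumors.

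With edgeR's quasi-likelihood test, no gene of the 10902 had a Benjamini-Hochberg adjusted p under 0.05, and the smallest adjusted p was 0.616 over all genes and 0.771 over the pathway members. At an unadjusted p under 0.05 the same test called 693 genes, of which 348 had higher and 345 had lower levels under SS, and DESeq2 gave 35 genes an adjusted p under 0.05 (0.58% of the 6039 to which it assigned one), none of them a member. DESeq2 gave an adjusted p to 26 of the 47 members and none to Lgr6, Fzd3 or Lef1. Of the 47 members tested, 4 had an unadjusted p under 0.05, all lower in SS tumors. These were Fzd3, Fzd7, Lgr6 and Tcf7, or 8.51% of members, where 6.36% of all genes had such a p in either direction, 3.16% lower and 3.19% higher. That count is close to the background, but it depends on the test. DESeq2 called 8 members (17.0%, all lower) where it called 6.31% of all genes. A further description of direction is that 32 of 47 members (68.1%) had a lower fitted level in SS tumors against 50.2% of all genes, with a median log2 fold change of −0.17 against −0.0013. Below a mean of 20 CPM, a split chosen after the values were seen, 20 of 26 members were lower, with a median of −0.58, beside 48.8% of genes at that level. At or above 20 CPM, 12 of 21 members were lower, with a median of −0.08, beside 51.9% of genes. These counts of direction carry no test. Only 3 members (Fzd3, Lgr6 and Gsk3b) had Control and SS tumors that did not overlap, 6.38% of members where 12.9% of all genes did so.

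**Figure D1:**
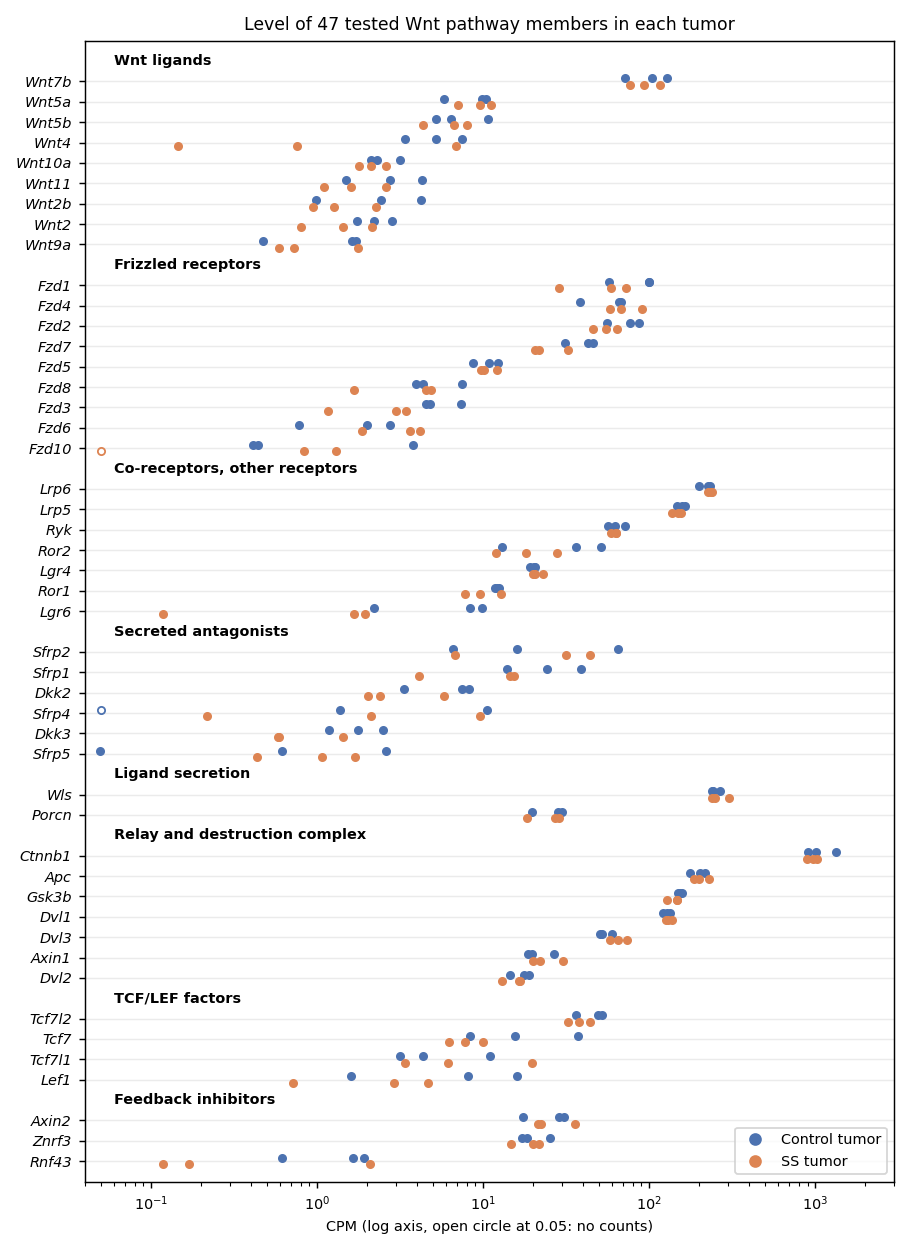
Level of each of the 47 tested members in each tumor, in CPM on a log axis, grouped by role, with Control tumors in blue and SS tumors in orange; an open circle marks a tumor with no counts. Ctnnb1 lay highest, from 889 to 1329 CPM, and the widest scatter between tumors was among genes under 20 CPM such as Wnt4, Sfrp4 and Lgr6.

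**Figure D2:**
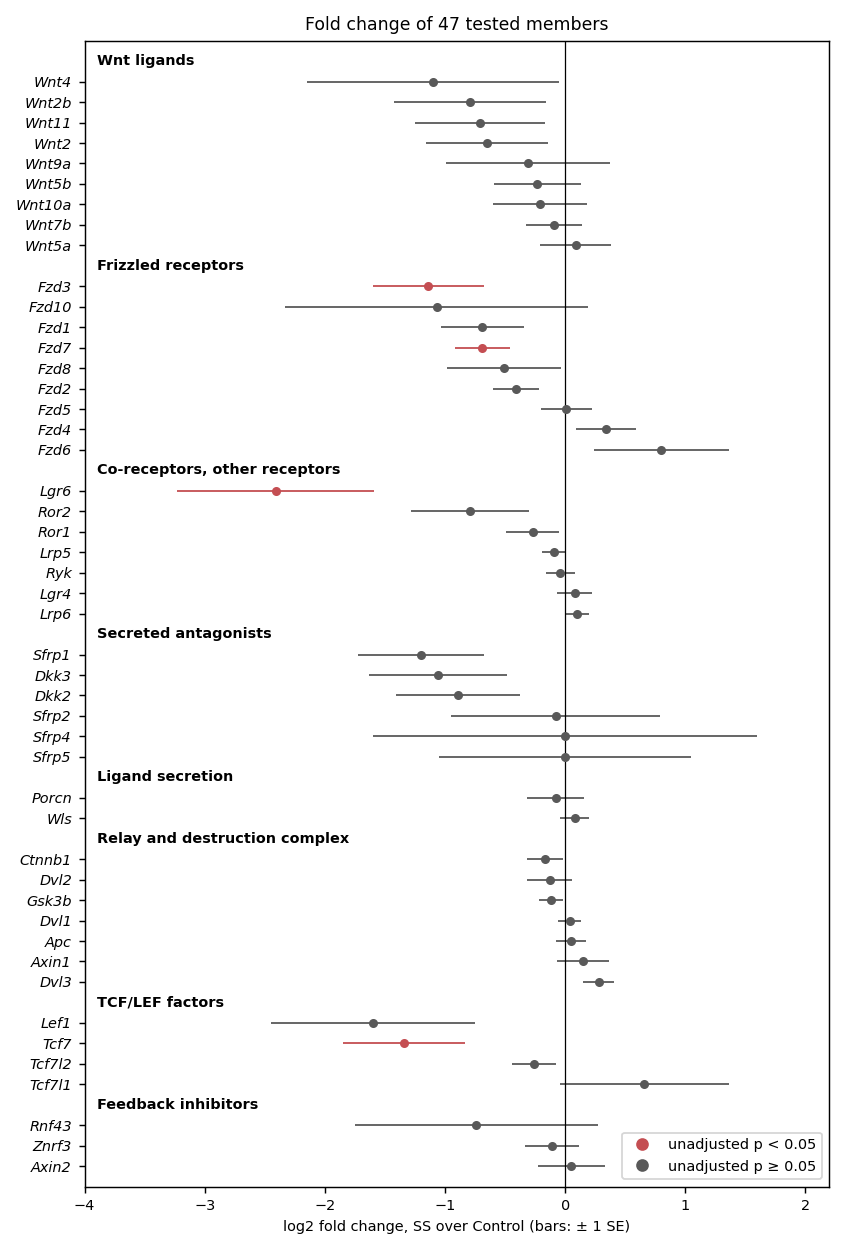
Fitted log2 fold change of each tested member, SS over Control, with bars of 1 standard error, grouped by role; red marks the 4 members with an unadjusted p under 0.05. Most points lay left of 0, while the relay genes, from Ctnnb1 at −0.17 to Dvl3 at 0.28, stayed near it.

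Among the ligands, 9 of 13 genes in the table were tested, and none had an unadjusted p under 0.05 with edgeR, while limma-voom called Wnt4. Wnt7b, a ligand of the canonical branch, was the main Wnt transcript of these tumors. It measured 71.6, 129 and 104 CPM in Control tumors 1, 2 and 3, and 116, 77.3 and 93.6 CPM in SS tumors 1, 2 and 3. The groups overlapped throughout, at 102 ± 28.9 CPM in Control and 95.7 ± 19.6 CPM in SS (SD, n = 3), with a log2 fold change of −0.09 (SE 0.232, adjusted p = 0.954 by edgeR). Per kilobase of transcript Wnt7b stood at 32.4 CPM in Control and 30.6 CPM in SS tumors, whereas the next ligands, Wnt5b and Wnt5a, stood at 3.14 and 2.39 CPM per kilobase in Control tumors. Its share of all ligand counts was 64.2%, 80.4% and 74.5% in Control and 85.4%, 67.8% and 78.7% in SS tumors, which did not separate the groups (exact two-sided permutation test, p = 0.6, where 3 against 3 tumors cannot go below 0.1).

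Wnt5a, the prototype ligand of the branch that works without beta-catenin, measured 10.4, 5.85 and 9.89 CPM in Control and 7.04, 11.2 and 9.63 CPM in SS tumors. It was the single tested ligand with a fitted level above Control, at a log2 fold change of 0.09 (SE 0.296, adjusted p = 0.967), and its groups overlapped. Wnt4, which in the normal mammary gland acts downstream of progesterone, varied widely. It read 3.40, 7.47 and 5.21 CPM in Control tumors but 0.145, 6.92 and 0.761 CPM in SS tumors, so that SS tumors 1 and 3 were low and SS tumor 2 lay within the Control range. The fitted change of −1.10 had a standard error of 1.05 (adjusted p = 0.898), and it came to −3.58 when SS tumor 2 was left out and to −0.51 when SS tumor 1 was. The remaining tested ligands stayed under 11 CPM in every tumor: Wnt2b, Wnt11 and Wnt2 had log2 fold changes of −0.79, −0.71 and −0.65, with adjusted p of 0.879, 0.871 and 0.875. With single tumors left out these ran from −1.21 (SS tumor 2) to −0.20 (Control tumor 3) for Wnt2b, from −1.09 (SS tumor 2) to −0.28 (Control tumor 3) for Wnt11 and from −1.03 (SS tumor 2) to −0.35 (SS tumor 1) for Wnt2. Wnt2, on chromosome 6 near Met, was at 0.798 to 2.85 CPM, while Met itself was at 97.8 to 127 CPM. Wnt1, Wnt6, Wnt10b and Wnt16 failed the filter, ranging from 0 to 3.87 CPM with the highest value for Wnt16 in Control tumor 1. Wnt3, Wnt3a, Wnt7a, Wnt8a, Wnt8b and Wnt9b had no entry in the table used here. Secretion of these ligands needs Porcn, the enzyme that adds their lipid, and Wls, their carrier to the cell surface. Wls measured 239, 243 and 269 CPM in Control and 249, 238 and 305 CPM in SS tumors, for a log2 fold change of 0.08 (SE 0.12, adjusted p = 0.931). Porcn measured 19.7, 30.1 and 28.5 CPM against 18.3, 28.7 and 27.3 CPM, at −0.08 (SE 0.235, adjusted p = 0.959). The groups overlapped for both genes.

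**Figure D3:**
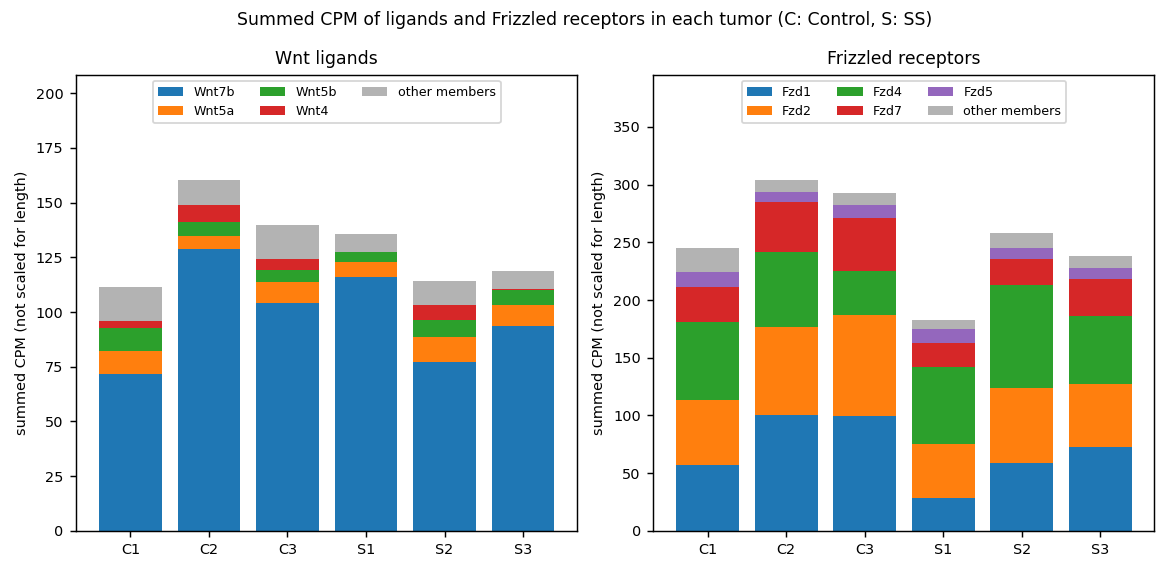
Summed CPM of the Wnt ligands (left) and the Frizzled receptors (right) in each tumor, C for Control and S for SS, stacked by gene and not scaled for transcript length. Wnt7b filled most of each ligand bar, and the Frizzled bars ran from 183 CPM in SS tumor 1 to 304 CPM in Control tumor 2.

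The Frizzled receptors, which bind the ligands through a cysteine-rich outer domain, held 2 of the 4 members called without adjustment. All 9 genes in the table were tested and 6 were lower in SS tumors, with a median log2 fold change of −0.51. Fzd7, a receptor known from stem-like cells of breast and gut, spans chr1:59482147-59486956 on the plus strand (mm10). It read 31.0, 43.2 and 46.3 CPM in Control tumors and 20.7, 21.8 and 32.4 CPM in SS tumors. Control tumor 1 lay just below SS tumor 3, and every other SS tumor lay below every Control tumor. The means of 40.1 ± 8.07 and 25 ± 6.44 CPM (SD, n = 3) corresponded to a log2 fold change of −0.69 (SE 0.228, adjusted p = 0.771 by edgeR). Leaving out tumors in turn kept the change between −0.92 and −0.57, but an unadjusted p under 0.05 remained only without Control tumor 1 or without SS tumor 3.

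Fzd3, which serves planar polarity and axon guidance, lies on chr14:65192441-65262464 on the minus strand. It was scarce, with 7.35, 4.77 and 4.56 CPM in Control and 1.16, 2.98 and 3.46 CPM in SS tumors. Every SS tumor was below every Control tumor, with a log2 fold change of −1.14 (SE 0.462, adjusted p = 0.771 by edgeR). Without single tumors the change was −1.45 to −0.78, and an unadjusted p under 0.05 remained only without SS tumor 3.

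The more abundant Frizzled genes did not pass the unadjusted threshold with edgeR, though DESeq2 called Fzd1 and Fzd2 and limma-voom called Fzd1. Fzd1 read 57.2, 100 and 99.6 CPM in Control and 28.8, 58.8 and 72.2 CPM in SS tumors. Its log2 fold change was −0.69 (SE 0.347, adjusted p = 0.792), equal in size to that of Fzd7, but Control tumor 1 lay among the SS tumors. Fzd2 read 56.0, 76.4 and 87.0 CPM against 46.1, 64.5 and 55.2 CPM, at −0.41 (SE 0.192, adjusted p = 0.79), again with Control tumor 1 inside the SS range. Fzd4, which also serves the non-Wnt ligand norrin in blood vessels, went the other way. It read 67.4, 65.5 and 38.4 CPM in Control and 67.4, 90.1 and 58.6 CPM in SS tumors, at a log2 fold change of 0.34 (SE 0.246, adjusted p = 0.866), with overlapping groups. Summed endothelial markers were 48.9 to 86.7 CPM in Control and 63.7 to 129 CPM in SS tumors (5 of 6 genes in the table, 4 tested, of which Vwf was higher at an unadjusted p under 0.05 and Pecam1 stayed at 0 to 0.596 CPM), with SS tumor 2 highest for these and for Fzd4, and their part in the Fzd4 values was not tested. As a share of all Frizzled counts Fzd4 took 27.5%, 21.5% and 13.1% in Control and 36.8%, 34.9% and 24.6% in SS tumors, a difference that did not separate the groups fully (exact two-sided permutation test, p = 0.2). Fzd6, an inhibitory receptor in some settings, was at 0.786 to 2.77 CPM in Control and 1.86 to 4.17 CPM in SS tumors, with a log2 fold change of 0.80 (adjusted p = 0.86). Fzd5 measured 8.70 to 12.3 CPM over the 6 tumors, Fzd8 1.67 to 7.51 CPM and Fzd10 0 to 3.79 CPM, and Fzd9 had no entry. Per kilobase, Fzd1 and Fzd2 led the family in Control tumors with 20.4 CPM for Fzd1 and slightly less for Fzd2, ahead of Fzd7 at 8.85 and Fzd4 at 8.5 CPM. In SS tumors Fzd2 stood at 15.1, Fzd1 at 12.7, Fzd4 at 10.7 and Fzd7 at 5.51 CPM per kilobase.

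The largest fold change of any tested member was that of Lgr6, an R-spondin receptor that marks stem cells of skin and other epithelia, on chr1:134986353-135105277, minus strand. It read 2.21, 8.31 and 9.89 CPM in Control and 1.67, 0.119 and 1.94 CPM in SS tumors, which were 28, 169 and 241 estimated counts against 23, 1 and 23. The SS tumors all lay below the Control tumors, though Control tumor 1 lay close to SS tumors 1 and 3 and far from the other Control tumors. The log2 fold change was −2.41 (SE 0.817, adjusted p = 0.771 by edgeR). It was −2.83 to −1.92 when tumors were left out in turn, and the unadjusted call was lost without Control tumor 2 or Control tumor 3 and with limma-voom. Of its relatives, Lgr4 was at 19.3 to 22.9 CPM in all 6 tumors, with a log2 fold change of 0.08 (SE 0.144, adjusted p = 0.937), and Lgr5, a stem cell marker of the gut, was below the filter at 0.119 to 1.74 CPM. Their ligands, the R-spondins, were near absent, with Rspo1, Rspo2 and Rspo4 at no more than 0.885 CPM in any tumor and no entry for Rspo3.

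The promoters of Fzd7 and Lgr6 are shown because both are receptors with an unadjusted p under 0.05. Each run is the 250 bases before the transcript start in RefSeq (GRCm38.p6), read 5′ to 3′ on the gene's strand. For minus-strand genes the count table and these windows place the start at neighboring bases (135105277 and 135105276 for Lgr6). Such windows therefore include the start base of the count table. Capitals mark a GC box (GGGCGG, or CCGCCC on the other strand), where overlapping or adjoining matches run together.
Fzd7 chr1:59481897-59482146, plus strand: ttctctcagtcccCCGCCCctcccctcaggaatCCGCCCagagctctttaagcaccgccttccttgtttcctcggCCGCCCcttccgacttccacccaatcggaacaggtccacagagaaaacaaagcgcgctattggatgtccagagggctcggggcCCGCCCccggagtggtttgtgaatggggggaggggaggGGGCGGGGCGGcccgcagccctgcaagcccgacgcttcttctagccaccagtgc
Lgr6 chr1:135105277-135105526, minus strand: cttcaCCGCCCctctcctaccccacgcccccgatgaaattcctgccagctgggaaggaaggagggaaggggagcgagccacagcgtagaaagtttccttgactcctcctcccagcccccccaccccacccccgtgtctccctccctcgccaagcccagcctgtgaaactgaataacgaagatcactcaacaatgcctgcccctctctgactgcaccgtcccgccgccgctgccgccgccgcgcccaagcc
Fzd7 had 6 GC box matches and Lgr6 had 1. Of the 47 tested members 31 had a promoter in the RefSeq set, with 41 windows, of which 75.6% held at least 1 GC box. The share was 59.0% over windows of all tested genes and 32.7% over all 32851 windows. Fzd3 had no entry.

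Of the co-receptors, Lrp6 and Lrp5, which carry the canonical signal with Frizzled, were among the steadiest members. Lrp6 read 225, 199 and 232 CPM in Control and 237, 239 and 227 CPM in SS tumors, for a log2 fold change of 0.10 (SE 0.0963, adjusted p = 0.898). Lrp5 read 147, 164 and 158 CPM against 137, 150 and 156 CPM, at −0.09 (SE 0.0988, adjusted p = 0.918). Both pairs of groups overlapped. Ror2, a receptor tyrosine kinase that binds Wnt5a, ranged from 13.0 to 51.5 CPM in Control and 12.0 to 28.1 CPM in SS tumors. Control tumor 1 was again the low one, and the log2 fold change was −0.79 (SE 0.49, adjusted p = 0.839). It ranged from −1.17 without that tumor to −0.35 without Control tumor 2. Ror1 was at −0.27 (adjusted p = 0.884), and Ryk stayed at 56.5 to 71.4 CPM across the 6 tumors.

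The secreted antagonists bind ligands (Sfrp family) or Lrp5 and Lrp6 (Dkk1, Dkk2 and Dkk4). None of the 6 tested genes had an unadjusted p under 0.05 with edgeR, and their median log2 fold change was −0.48. Sfrp1 was the closest to that threshold, at 14.0, 39.2 and 24.3 CPM in Control and 4.14, 15.4 and 14.5 CPM in SS tumors. It was called by DESeq2, by limma-voom and by edgeR without the filter on low counts. With edgeR it was also called with the replicate number as a block, after thinning to the smallest library and without Control tumor 1. SS tumor 1 was the lowest and Control tumor 1 lay below the other SS tumors, so the groups overlapped, and the log2 fold change was −1.20 (SE 0.526, adjusted p = 0.771 by edgeR), and −1.50 to −0.77 with single tumors left out. A fibroblast list (8 genes in the table, 6 tested, none called) summed to 12888, 18830 and 14749 CPM in Control and 9112, 18254 and 14844 CPM in SS tumors, mostly Col1a1. Like Sfrp1 and Fzd1 the sum was lowest in SS tumor 1, next lowest in Control tumor 1 and highest in Control tumor 2. Other genes of the list had another order, with Pdgfra highest in Control tumor 1 and Col3a1 and Dcn highest in SS tumor 2, and the part of fibroblasts in these values was not tested. Dkk3, a divergent family member, and Dkk2 had log2 fold changes of −1.06 (adjusted p = 0.802) and −0.89 (adjusted p = 0.818), from ranges of 1.19 to 2.5 against 0.581 to 1.44 CPM and of 3.37 to 8.26 against 2.03 to 5.83 CPM. Leaving out SS tumor 3 gave −1.63 for Dkk3 and −1.52 for Dkk2, and the smallest changes were −0.75 for Dkk3 (without Control tumor 3) and −0.63 for Dkk2 (without SS tumor 2). Sfrp2 varied widely between tumors within Control, at 65.0, 16 and 6.61 CPM, and read 6.75, 44.1 and 31.7 CPM in SS tumors, so its log2 fold change of −0.08 carried a standard error of 0.872. Sfrp4 and Sfrp5 spanned 0 to 10.6 CPM and 0.0492 to 2.61 CPM. Dkk1, Dkk4 and Wif1 had no entry.

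**Figure D4:**
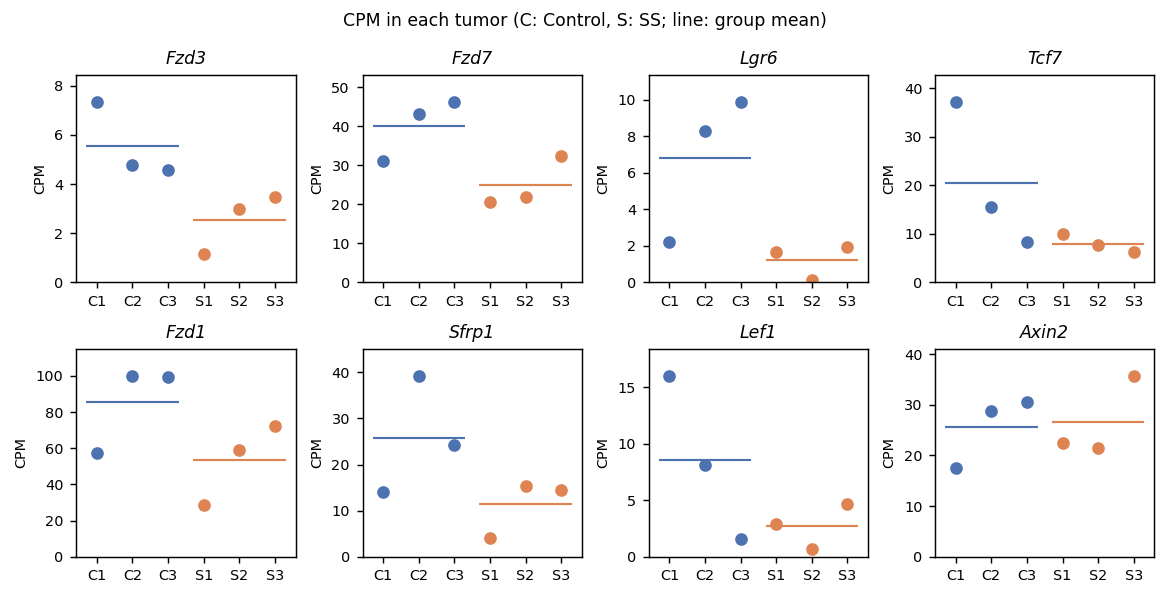
CPM of 8 members in each tumor on linear axes from 0, C for Control and S for SS, with a line at each group mean. Fzd3 and Lgr6 had every SS tumor below every Control tumor, the groups of Fzd7, Tcf7, Fzd1, Sfrp1 and Lef1 overlapped, and so did those of Axin2, at 17.5 to 30.6 and 21.5 to 35.7 CPM.

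Inside the cell, the relay and destruction complex held 7 tested genes, of which none had an unadjusted p under 0.05 with edgeR and whose median log2 fold change was 0.04. Ctnnb1, which encodes beta-catenin, was the most abundant member per length, at 400 CPM per kilobase in Control and 355 in SS tumors. It read 907, 1009 and 1329 CPM in Control and 1020, 889 and 969 CPM in SS tumors, with overlapping groups and a log2 fold change of −0.17 (SE 0.151, adjusted p = 0.89). Gsk3b, the kinase that marks beta-catenin for degradation, read 153, 150 and 158 CPM in Control and 148, 128 and 148 CPM in SS tumors. The groups did not overlap, yet the difference was small, at −0.12 (SE 0.0994, adjusted p = 0.89). Apc, a scaffold of the destruction complex, read 217, 177 and 203 CPM against 187, 231 and 200 CPM, at 0.05 (SE 0.122, adjusted p = 0.95). Axin1, the other scaffold, was at 18.8 to 30.2 CPM with a log2 fold change of 0.15 (adjusted p = 0.929), or 0.58 on its most abundant transcript alone. Among the Dishevelled proteins, which pass the signal on from Frizzled, Dvl3 read 50.8, 59.6 and 52.2 CPM in Control and 58.6, 73.6 and 64.9 CPM in SS tumors. Only SS tumor 1 reached into the Control range, and the log2 fold change was 0.28 (SE 0.128, adjusted p = 0.79 by edgeR). Dvl1 stayed at 121 to 138 CPM and Dvl2 at 13.0 to 18.9 CPM over the 6 tumors.

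Of the TCF/LEF factors, the DNA-binding partners of beta-catenin, Tcf7 had an unadjusted p under 0.05 with edgeR, and DESeq2 called Lef1 as well. Tcf7, also a factor of T cell development and memory, spans chr11:52252283-52283015 on the minus strand. It read 37.2, 15.6 and 8.37 CPM in Control and 10.0, 7.75 and 6.25 CPM in SS tumors. Control tumor 1 stood far above the rest, and SS tumor 1 exceeded Control tumor 3. The log2 fold change was −1.34 (SE 0.51, adjusted p = 0.771 by edgeR), and without Control tumor 1 it was −0.58. The unadjusted call was lost without Control tumor 1, SS tumor 2 or SS tumor 3, and also with limma-voom and with quantile normalization. Lef1, likewise used by T cells, followed a related pattern at 16, 8.11 and 1.60 CPM in Control and 2.90, 0.715 and 4.65 CPM in SS tumors. Its groups overlapped through Control tumor 3, and the log2 fold change of −1.60 (SE 0.851) had an adjusted p of 0.793 by edgeR. It ranged from −2.18 without SS tumor 3 to −0.79 without Control tumor 1.

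Markers of T cells were highest in the same tumor as both genes, while the order of the other tumors differed. Of 8 markers on the list 4 had an entry (Cd3e, Lck, Cd2 and Cd4), of which Cd3e and Lck were tested and neither was called, and their summed level was 16.9 to 83.2 CPM in Control and 11.7 to 33.5 CPM in SS tumors. Control tumor 1 was highest, as for Tcf7 and Lef1, with Cd3e at 45.8 CPM there and at 4.06 to 19.9 CPM in the other tumors. Lck was at 34.7 CPM in that tumor and at 7.35 to 12.6 CPM elsewhere. SS tumor 3 was lowest for the summed markers at 11.7 CPM, yet its Lef1 of 4.65 CPM exceeded Control tumor 3 and the other SS tumors. Summed adipocyte, basal and Schwann cell markers also peaked in Control tumor 1, at 47.3, 151 and 13.7 CPM. Macrophage markers were lowest there, at 715 CPM. Cd3d, Cd3g, Cd5 and Cd8a had no entry, and the part of T cells in the Tcf7 and Lef1 values was not tested. Tcf7l2, the TCF factor with the highest level per kilobase, at 19.7 CPM in Control and 16.5 CPM in SS tumors, read 36.1, 52.2 and 49.1 CPM in Control and 38.1, 32.3 and 44.3 CPM in SS tumors. The groups overlapped, at −0.26 (SE 0.182, adjusted p = 0.86). Tcf7l1, mainly a repressor, measured 11.1, 4.33 and 3.16 CPM against 6.17, 19.8 and 3.38 CPM, at 0.66 (SE 0.704, adjusted p = 0.909). The 3 tumors highest for Tcf7l1 (Control tumor 1, SS tumor 1 and SS tumor 2) were those highest for a list of 6 basal or myoepithelial markers, which summed to 151, 20.9 and 10.4 CPM in Control and 68.1, 91.1 and 10.1 CPM in SS tumors. Within these tumors Tcf7l1 peaked in SS tumor 2 and the basal sum in Control tumor 1. The same tumors were highest for an adipocyte list, at 47.3, 0.442 and 0.041 CPM in Control and 12.5, 19.7 and 0.676 CPM in SS tumors. They were also highest for the luminal keratin Krt19, while the fibroblast list was highest in Control tumor 2. The defining basal keratin Krt5 was at 0 in SS tumor 3, and the part of basal or other cells in the Tcf7l1 values was not tested.

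**Figure D5:**
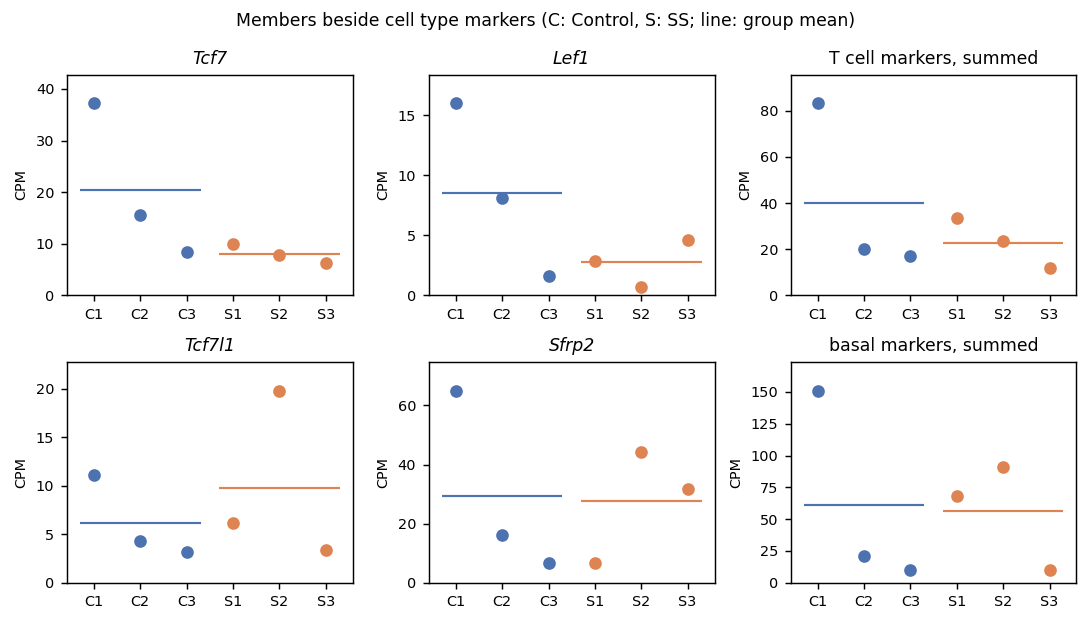
CPM in each tumor of Tcf7, Lef1, Tcf7l1 and Sfrp2 beside the summed CPM of T cell markers and of basal markers, on linear axes from 0, C for Control and S for SS, with a line at each group mean. Control tumor 1 was the highest of the 6 for Tcf7, Lef1, Sfrp2 and both marker sums, while SS tumor 2 was the highest for Tcf7l1.

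Transcripts of Tcf7 and Lef1 have alternative annotated starts, and tumors differed in which start carried the estimated counts. The upstream start of Tcf7 held 36.7%, 13.5% and 31.4% of its estimated counts in Control and 83.3%, 10.8% and 10.8% in SS tumors. SS tumor 1 alone had most of its Tcf7 counts there, 115 of 138 (exact binomial 95% interval 76.0% to 89.1%, counting error only). For Lef1 the upstream start held 42.9%, 88.5% and 48.7% in Control and 100%, 0% and 83.6% in SS tumors, the 0% resting on 6 counts in SS tumor 2, which allow up to 45.9%. Neither gene separated the groups by start. The estimates depend on how reads shared by isoforms were divided, which is not given in the sources used here. The windows before these annotated starts are printed to show how far they differ in sequence. In the upstream Tcf7 window an ATG (within caccatgccg) opens a reading frame without a stop codon to the window's end. That window can therefore be coding sequence, and its GC boxes and base composition are not read here as those of a promoter. They were read as above, with the upstream site first for each gene and GC boxes in capitals.
Tcf7 chr11:52283015-52283264, minus strand: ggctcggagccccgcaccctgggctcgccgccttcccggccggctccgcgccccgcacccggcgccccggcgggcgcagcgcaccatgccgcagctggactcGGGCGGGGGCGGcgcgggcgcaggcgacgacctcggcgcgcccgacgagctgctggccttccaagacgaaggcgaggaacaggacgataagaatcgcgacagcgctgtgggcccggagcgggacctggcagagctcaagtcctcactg
Tcf7 chr11:52282596-52282845, minus strand: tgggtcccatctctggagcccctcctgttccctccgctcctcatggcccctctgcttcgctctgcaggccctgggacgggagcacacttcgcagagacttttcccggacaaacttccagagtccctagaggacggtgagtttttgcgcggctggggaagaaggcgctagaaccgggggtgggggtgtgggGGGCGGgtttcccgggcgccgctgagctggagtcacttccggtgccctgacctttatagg
Lef1 chr3:131110047-131110296, plus strand: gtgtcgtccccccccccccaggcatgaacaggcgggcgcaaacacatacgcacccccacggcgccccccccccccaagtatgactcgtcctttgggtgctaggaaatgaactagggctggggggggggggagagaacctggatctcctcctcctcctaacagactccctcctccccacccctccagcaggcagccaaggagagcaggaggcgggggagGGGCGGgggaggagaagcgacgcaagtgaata
Lef1 chr3:131112541-131112790, plus strand: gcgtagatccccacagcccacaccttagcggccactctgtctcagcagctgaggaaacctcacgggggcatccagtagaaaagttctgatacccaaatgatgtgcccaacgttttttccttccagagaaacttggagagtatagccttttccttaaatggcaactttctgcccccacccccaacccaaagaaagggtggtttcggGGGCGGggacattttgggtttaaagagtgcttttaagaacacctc
The upstream window of Tcf7 had 37 CG dinucleotides and 76.0% G or C, against 15 and 64.4% at its other start. For Lef1 the values were 11 and 66.4% at the upstream start and 6 and 50.8% at the other.

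A search for the TCF/LEF motif (CTTTGAA or CTTTGAT, on both strands) found it in none of these 4 windows. Over the 31 tested members with a window, 2 of 41 windows (4.88%) held it, against 5.14% for windows of all tested genes and 7.48% of all promoter windows. Both were at ligand genes, and they are printed because they were the only matches among those 41 windows. Capitals mark the TCF/LEF motif as well as GC boxes.
Wnt5b chr6:119449387-119449636, minus strand: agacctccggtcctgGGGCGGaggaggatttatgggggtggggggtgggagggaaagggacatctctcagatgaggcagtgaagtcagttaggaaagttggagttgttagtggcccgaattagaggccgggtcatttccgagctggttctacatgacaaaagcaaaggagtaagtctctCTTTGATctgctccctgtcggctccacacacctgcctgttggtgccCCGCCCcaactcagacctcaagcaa
Wnt11 chr7:98834862-98835111, plus strand: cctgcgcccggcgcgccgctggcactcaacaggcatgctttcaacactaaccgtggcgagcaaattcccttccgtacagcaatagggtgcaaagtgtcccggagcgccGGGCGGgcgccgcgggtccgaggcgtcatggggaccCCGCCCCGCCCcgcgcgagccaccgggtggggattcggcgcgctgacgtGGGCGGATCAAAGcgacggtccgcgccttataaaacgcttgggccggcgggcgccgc
The motif CTTTGAT begins 71 bases before the start in the Wnt5b window, and the same letters on the opposite strand begin 51 bases before the start in the Wnt11 window. That Wnt5b start held 19.9% to 21.7% of the gene's counts in the 6 tumors. The Wnt11 start held none of the counts in 5 tumors and 12 of 22 in SS tumor 2, so these windows lay at a minor start of each gene except for Wnt11 in SS tumor 2.

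Over all members, 96 transcripts were listed, and 19 members had more than 1. In 13 of those 19 the same transcript led in every tumor. Tcf7l2 was the most divided, with 18 transcripts and 4 different leading ones over the 6 tumors. For Fzd5 and Fzd6 the leading transcript took 68.2% and 51.2% of the counts in each of the 6 tumors, the same share throughout, and the minor start of Wnt5b took 21.3% of the unrounded estimates in 5 of the 6. Such constant shares can be set by the way shared reads were divided and are not read here as measurements of each isoform.

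The feedback inhibitors are themselves induced by canonical signaling and limit it, and Axin2 is its usual readout. Axin2 read 17.5, 28.8 and 30.6 CPM in Control and 22.4, 21.5 and 35.7 CPM in SS tumors. The groups overlapped, at 25.6 ± 7.11 and 26.5 ± 8 CPM (SD, n = 3), with a log2 fold change of 0.05 (SE 0.278, adjusted p = 0.98 by edgeR). Znrf3, a ubiquitin ligase that removes Frizzled from the surface, read 17.2, 18.4 and 25.5 CPM against 20.1, 14.8 and 21.9 CPM, at −0.11 (SE 0.224, adjusted p = 0.945). Its relative Rnf43 was at 0.616 to 1.92 CPM in Control and at 0.119 to 2.10 CPM in SS tumors. Neither gene separated the groups.

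Of 94 further pathway genes (R-spondins and other modulators, destruction complex partners and kinases, nuclear cofactors, planar polarity and calcium genes, and known targets), 84 were in the table and 71 were tested. Levels were lower in SS tumors for 40 and higher for 31, where 50.2% of all genes were lower, and the median log2 fold change was −0.08. An unadjusted p under 0.05 was found for 3, beside the background of 6.36%. Sox9, a target and a factor of mammary stem cells, read 105, 87.5 and 203 CPM in Control and 56.7, 62.0 and 85.8 CPM in SS tumors. All SS tumors were below all Control tumors, at a log2 fold change of −0.95 (SE 0.32). Myc, the oncogene and target, read 41.5, 44.3 and 49.2 CPM against 32.9, 39.9 and 36.0 CPM, also without overlap, at −0.31 (SE 0.132). Tle2, a corepressor of TCF factors, was higher, at 1.66, 2.06 and 1.85 CPM against 3.19, 3.22 and 3.46 CPM, at 0.82 (SE 0.351). The adjusted p of each was 0.771 by edgeR, while DESeq2 gave 0.0886 for Sox9, 0.625 for Myc and none for Tle2. Of the 18 targets tested, 14 were lower in SS tumors, with a median of −0.29, beside 50.2% and −0.0013 over all genes. This count carries no test. The 4 higher targets were Apcdd1 (0.32), Id2 (0.23), Ccnd1 (0.13) and Cd44 (0.08), none with an unadjusted p under 0.05. In all, 12 of the 71 did not overlap between groups, beside 12.9% of all genes.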

How the data were processed

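RNA of 6 tumors (3 Control, 3 SS) was sequenced by the authors as stranded, paired reads of 75 nucleotides. The deposited values are estimated counts for RefSeq transcripts with mm10 coordinates, not normalized, from which the authors had removed entries with low counts. The submitters' processing notes name CASAVA 1.8.1, Bowtie2 2.2.5, STAR 2.5.3a and mm10, and the counting tool is not given in the sources used here. The 4 largest values were rounded to 3 digits. Counts of 20648 transcripts were summed to 13730 genes and rounded, and 21 symbols stored as dates were restored. Replicates were separate tumors by label. edgeR 4.0.16 in R 4.3.3 was run with TMM scaling (factors 0.981 to 1.029), filterByExpr and the quasi-likelihood test of SS against Control on 10902 genes with Benjamini-Hochberg adjustment. DESeq2 1.42.0 and limma 3.58.1 served as alternatives. The standard error (SE) was taken as the absolute log2 fold change over the square root of the F statistic. CPM is TMM-scaled, and CPM per kilobase uses the exonic length of the transcript paired with the most abundant one. Named members were those with an unadjusted p under 0.05 or without overlap, the 2 most abundant of each role, and others chosen after their values were seen. The fit was tested on simulated data with 10888 genes, where 28.8%, 71.9% and 93.3% of genes changed by 1, 2 and 3 log2 units were recovered. Members and lists were chosen with earlier results of these data known. The depth of 8468914 to 24441522 counts sets a floor of 0.123 to 0.354 CPM for 3 counts.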

Additional observations from a re-analysis of the deposited data

How the results depend on the processing

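The counts of calls, the median and the fold changes of 35 members were recomputed with other scalings, filters, tests and counting units, and with the replicate number as a block. Without each tumor, the counts, the median and the fold changes of all 47 tested members were recomputed. Thinning every library to the smallest was added after the data were seen. The number of genes with an adjusted p under 0.05 was 0 with each except DESeq2, which gave 35. Members with an unadjusted p under 0.05 numbered 8 with DESeq2, which added Fzd1, Fzd2, Lef1 and Sfrp1 (17.0% of members, 6.31% of all genes). They numbered 7 with the replicate block (14.9%, against 5.9%), which lost Fzd3 and added Fzd1, Fzd2, Sfrp1 and, higher, Dvl3. Voom lost Lgr6 and Tcf7 and added Fzd1, Sfrp1 and Wnt4, and quantile normalization lost Tcf7. Without single tumors that number ran from 2 (without Control tumor 2) to 7 (without Control tumor 1, where 14.9% of members and 7.81% of all genes passed), against 4 with all tumors. It was 3 to 5 under the other alternatives. Leaving out single tumors added Fzd1, Fzd2, Ror2, Sfrp1, Tcf7l2, Dkk2, Dkk3, Lef1, Rnf43 and Wnt4, all lower, and Dvl3, higher, each in some fits. Without Control tumor 2, Tcf7 alone remained of the 4. Members whose groups did not overlap numbered 6 to 14 when a tumor was left out, where 21.1% to 25.4% of all genes did so. The 14 came without Control tumor 1. That number is not given for DESeq2, voom, the block or the thinned counts. Other pathway genes with an unadjusted p under 0.05 numbered 0 (without SS tumor 1) to 7 (without Control tumor 1). The median of the members stayed between −0.32 and −0.15 under each of these alternatives.

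Some fold changes changed sign, among them those of Tcf7l1 (0.66 with all tumors), Tcf7l2 (−0.26) and Fzd10, which went from −1.07 to 0.74 without Control tumor 1. Axin2 was at −0.01 after thinning, and Porcn at 0.06 and Tcf7l2 at 0.80 on the most abundant transcript alone. Sfrp2 was at 0.25 with voom, 0.11 after quantile normalization and 0.47 with the block. Leaving out single tumors gave −0.04 to 0.12 for Apc, −0.05 to 0.32 for Axin1, −0.23 to 0.20 for Axin2, −0.29 to 0.0034 for Ctnnb1, −0.25 to 0.10 for Porcn, −0.59 to 1.27 for Sfrp2, −0.35 to 1.37 for Tcf7l1, −0.04 to 0.14 for Wls, −0.13 to 0.26 for Wnt5a, −0.29 to 0.12 for Wnt7b and −0.22 to 0.09 for Znrf3. Sfrp4, at −1.76 to 2.52, had the widest such range, and Sfrp5 (−0.58 to 1.63), Wnt5b (−0.43 to 0.12), Fzd5 (−0.12 to 0.13), Ryk (−0.11 to 0.06) and Dvl1 (−0.01 to 0.07) also crossed 0. Without changing sign, leaving out single tumors gave −0.98 to −0.39 for Fzd1, −0.57 to −0.26 for Fzd2, 0.12 to 0.47 for Fzd4, 0.43 to 1.19 for Fzd6, −0.48 to −0.12 for Ror1 and −0.41 to −0.16 for Tcf7l2. With voom Wnt4 was at −2.79, Lef1 at −1.02 and Tcf7 at −0.94, and on the most abundant transcript alone Wnt11 was at −1.13. After thinning Wnt2 was at −0.36. The cause was not tested. Deviations of same-numbered tumors from their group means correlated at 0.116, 0.021 and 0.077, so the numbers were not taken as pairs. With the block 643 genes had an unadjusted p under 0.05, of which 479 were among the 693 without it. Depth limits the scarce members: Lgr6 and Rnf43 rest on 1 count each in SS tumor 2.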
